A study of Mus musculus with 4 samples.

Results

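The troponin genes were described here by their H3K4me3 peaks in mouse gastrocnemius, the calf muscle, which is built mostly of fast fibres. The 8 genes listed were Tnnt1, Tnnt2, Tnnt3, Tnni1, Tnni2, Tnni3, Tnnc1 and Tnnc2, of 21755 protein-coding genes annotated outside the Y and mitochondrial chromosomes. Chromatin immunoprecipitation sequencing (ChIP-seq) of H3K4me3 was done on 4 libraries of gastrocnemius from adult B6CASTF1/J females aged 2 months, an F1 cross whose parental alleles are not separated in the peak lists. Pool E (biological replicate 1) and pool F (biological replicate 2) each joined 2 biosamples and gave 2 technical libraries. All libraries shared tissue, sex, age and strain, with no treatment given in the labels. The authors deposited 1 peak list for pool E, 1 for pool F, 1 for both pools (pooled) and 1 of peaks replicated between pools. No list holds a value per library, so values are given for the replicated list and beside it for each pool, and no test over samples was possible.

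Troponin is the calcium switch of the thin filament in striated muscle. Troponin C binds calcium, troponin I blocks the interaction of actin with myosin, and troponin T anchors the complex to tropomyosin. Separate paralogues serve fast skeletal muscle (Tnnc2, Tnni2, Tnnt3), slow skeletal muscle (Tnnc1, Tnni1, Tnnt1) and the heart (Tnni3, Tnnt2), and Tnnc1 is used in slow and cardiac muscle alike. The troponin I and troponin T genes are neighbours at 3 loci, where fast I lies beside fast T, slow I beside cardiac T, and cardiac I beside slow T. H3K4me3, histone H3 trimethylated at lysine 4, marks the promoters of active genes and of most CpG-rich promoters, and it often spreads into the body of strongly transcribed genes of a cell's own identity.

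The fast genes differed from the slow and cardiac genes in where their peaks lay and how strong their own peaks were. A gene is called marked when a peak lies within 1000 bp of any of its annotated transcription start sites (TSSs), and the signal value is the authors' own strength of a peak, comparable only inside a list. In the replicated list 7 of the 8 troponin genes were marked, and 69.3% of all protein-coding genes were. All 3 fast genes and all 3 slow genes were marked, and of the 2 cardiac genes Tnni3 was marked and Tnnt2 was not. A peak lay over a TSS in 5 of the 8 genes, beside 67.0% of all protein-coding genes. These 5 were the 3 fast genes and the slow genes Tnnt1 and Tnni1. The counts were the same in the lists of pool E, pool F and both pools, where 69.3%, 68.9% and 69.5% of protein-coding genes were marked and 67.1%, 66.6% and 67.1% had a peak over a TSS.

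All 8 genes had CpG-poor principal TSSs, which are those annotated for the principal isoforms. In windows of 1000 bp the ratio of observed to expected CpG ran from 0.08 at Tnnt3 and Tnnc1 to 0.28 at a downstream principal TSS of Tnnt2. By all their TSSs, 7 genes fell in the low CpG class (ratios under 0.48 at every TSS), and Tnnt1 was intermediate through an internal TSS of a non-coding transcript with a ratio of 0.81. Of all low CpG protein-coding genes 25.2% were marked and 21.0% had a peak over a TSS, beside 93.9% and 92.4% of intermediate and 99.3% and 98.9% of high CpG genes.

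The promoters of both troponin C genes and of the slow and cardiac troponin T genes are printed because they give fast, slow and cardiac members side by side, and differ in the peaks that cover them. RefSeq promoter entries (GRCm38.p6) matched 6 of the 8 genes, all but Tnni2 and Tnnt3. Each line is the 250 bases before the RefSeq start site, 5′ to 3′ on the gene's strand, and capitals mark matches to the motifs named in the paragraph that follows.
Tnnc2, chr2:164779735-164779984, minus strand: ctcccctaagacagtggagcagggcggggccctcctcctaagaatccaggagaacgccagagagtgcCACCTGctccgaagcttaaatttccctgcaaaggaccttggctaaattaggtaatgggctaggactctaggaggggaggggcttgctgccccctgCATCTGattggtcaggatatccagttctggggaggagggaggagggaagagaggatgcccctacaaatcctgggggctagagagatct
Tnnc1, chr14:31208062-31208311, plus strand: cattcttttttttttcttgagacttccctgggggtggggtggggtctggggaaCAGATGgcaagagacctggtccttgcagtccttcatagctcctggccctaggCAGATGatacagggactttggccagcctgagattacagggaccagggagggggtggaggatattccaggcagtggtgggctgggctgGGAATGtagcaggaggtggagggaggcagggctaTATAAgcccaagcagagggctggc
Tnnt1, chr7:4515976-4516225, minus strand: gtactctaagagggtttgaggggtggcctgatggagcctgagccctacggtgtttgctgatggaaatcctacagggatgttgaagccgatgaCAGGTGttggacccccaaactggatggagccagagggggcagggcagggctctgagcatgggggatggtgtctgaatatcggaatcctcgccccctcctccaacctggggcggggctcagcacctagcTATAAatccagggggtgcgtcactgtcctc
Tnnt2, chr1:135836084-135836333, plus strand: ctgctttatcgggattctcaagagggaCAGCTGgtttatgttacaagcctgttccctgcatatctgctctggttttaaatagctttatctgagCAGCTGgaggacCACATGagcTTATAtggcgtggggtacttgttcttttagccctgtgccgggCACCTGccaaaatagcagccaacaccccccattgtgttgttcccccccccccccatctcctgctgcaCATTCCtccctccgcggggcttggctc

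The motifs searched on both strands were TATAA, the M-CAT letters CATTCC, the E-box CANNTG, and the MEF2 and CArG consensus motifs. TATAA can lie inside a MEF2 match, but no matches of different motifs overlapped in the windows searched. TATAA was found at bases -30 to -26 of Tnnt1, at -24 to -20 of Tnnc1 and on the opposite strand at -136 to -132 of Tnnt2, and 22.8% of 32851 RefSeq promoters hold it. CATTCC was found in Tnnt2 at -27 to -22 and on the opposite strand of Tnnc1 at -58 to -53, and 12.6% of promoters hold it. Every entry of the 6 genes held an E-box, the motif of the MyoD family among others, as do 66.2% of promoters. No entry held a MEF2 or CArG match, which 2.92% and 1.47% of promoters hold. The windows held 3 CpG in Tnnc2, 0 in Tnnc1, 6 in Tnnt1 and 5 in Tnnt2. Of the 250 bases, 130 lay under replicated peaks at Tnnc2 (137 in pool E, 107 in pool F) and 0 in every list at the other 3 genes shown.

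The map of peaks around the principal TSSs sets the 8 genes side by side. Over the most upstream principal TSS the fast genes had wide peaks that ran downstream. The slow and cardiac genes had none over that TSS in any list. In the replicated list the nearest downstream peak began 120 bp from it at Tnnt1, 116 bp at Tnni1, 160 bp at Tnnc1 and 926 bp at Tnni3. At Tnnt1 that distance was 1501 bp in pool E. A principal TSS of Tnni1 further downstream did lie under a peak in every list. That peak had a signal value of 3.84 in the replicated list, 5.57 in pool E and 3.31 in pool F. Tnnt2 had no peak within 1000 bp of any TSS.

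**Figure D1:**
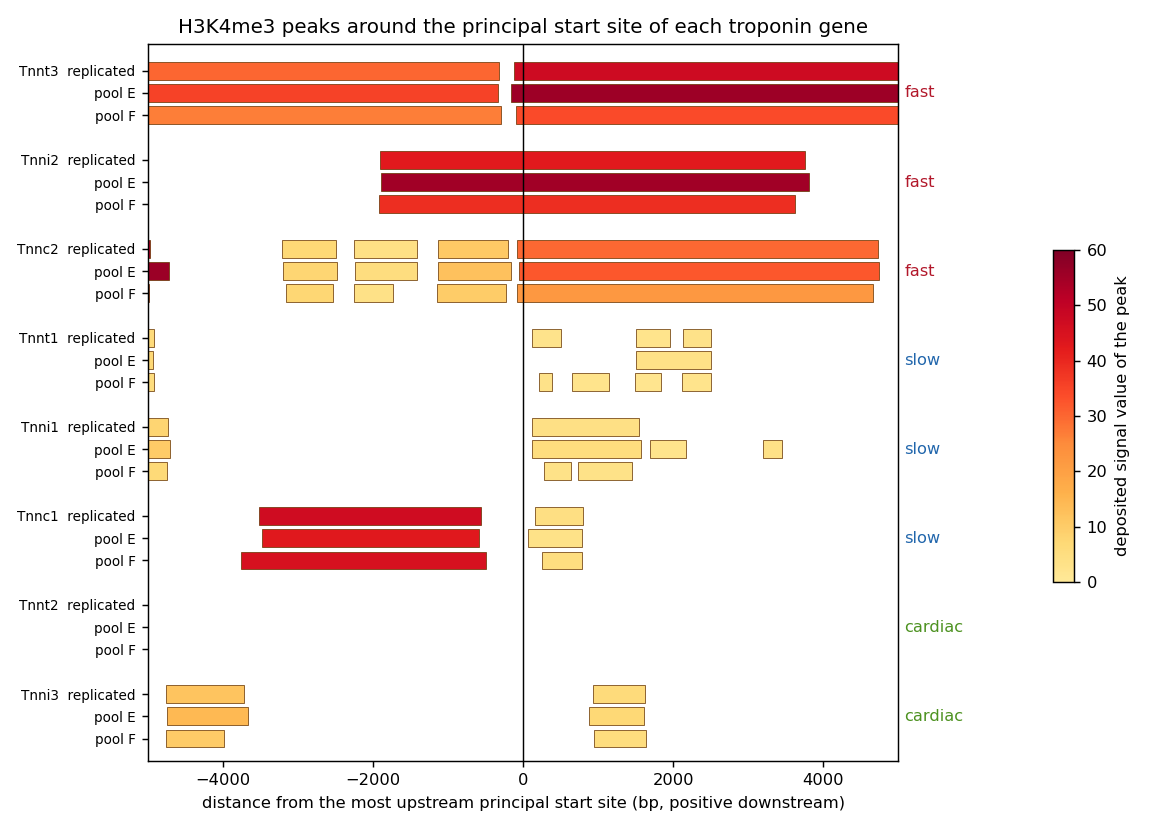
Peaks from the replicated, pool E and pool F lists as bars along the distance in bp from the most upstream principal TSS of each troponin gene (vertical line, positive downstream), coloured by the deposited signal value of the peak. The 3 fast genes have a peak across the line in every list shown, and the slow and cardiac genes have none across it.

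Tnnt3, fast troponin T, had the widest H3K4me3 domain of the family (chr7:142498836-142516009, plus strand, 10 TSSs, 9 of them under a peak). The strongest peak at its TSSs had a signal value of 47.4 in the replicated list, 55.6 in pool E and 34.1 in pool F. Inside each list that was the 55.2, 64.0 and 31.7 percentile of marked protein-coding genes, above the middle in pool E and under it in pool F. Among marked low CpG genes it was the 90.5, 94.1 and 77.2 percentile, in the upper part in all 3 lists. The peak itself, chr7:142498717-142509781, was 11065 bp wide, ranked 54 by width in its list, with its summit in an intron of Tnnt3 and of Prr33, a gene on the opposite strand. The peak over the TSS was 7658 bp wide in pool E and, in pool F, 6795 bp, with weaker peaks continuing downstream. It began 119 bp before the principal TSS, and 209 bp without a peak separated it from a peak of 9806 bp upstream (174 bp in pool E, 204 bp in pool F). Peaks covered 68.2% of the gene body (62.7% in pool E, 65.5% in pool F), and the median protein-coding gene had 4.03% covered.

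Peaks no more than 1000 bp apart were joined into domains. The domain at Tnnt3 was 24733 bp wide, made of 6 peaks at chr7:142486780-142511512, and 8 marked protein-coding genes had a wider one, so that its rank was 9 of 15067. In pool F it was 22431 bp wide with rank 10. In pool E, where more peaks joined, it was 39150 bp wide with rank 1. Without joining it was 11065 bp, and with gaps of up to 3000 bp it was 40106 bp. The domain also held TSSs of Lsp1, a leukocyte actin-binding protein gene, and of Prr33, annotated as a long non-coding RNA, so its width does not belong to Tnnt3 alone.

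Tnni2, fast troponin I (chr7:142441808-142444410, plus strand), had all 7 TSSs and its whole body under 1 peak. That peak, chr7:142439895-142445557, was 5663 bp wide in the replicated list, 5708 bp in pool E and, in pool F, 5545 bp. It began 1913 bp before the first TSS in the replicated list, 1898 bp before it in pool E and, in pool F, 1917 bp before it. The signal value was 42.7 in the replicated list, 55.1 in pool E and 38.8 in pool F, the 43.5, 62.5 and 41.0 percentile of marked genes and the 85.8, 93.3 and 83.8 percentile of marked low CpG genes. The summit lay 208 bp after the outermost TSS, in an intron. Of 2106 marked low CpG genes, 220 (10.4%), Tnni2 itself included, had a domain at least as wide. Syt8, a synaptotagmin gene ending upstream, counted as marked at 42.7 through the same peak and had no peak over its own TSSs.

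Tnnc2, fast troponin C (chr2:164777161-164779967, minus strand, 2 TSSs), had the lowest signal value of the fast genes. It was 29.8 in the replicated list, 32.3 in pool E and 22.1 in pool F, the 22.7, 22.5 and 16.4 percentile of marked genes. Its main peak, chr2:164775018-164779824, was 4807 bp wide and covered the downstream TSS. The summit lay 1731 bp past the outermost TSS, where an intron of Tnnc2 overlaps an exon of Ube2c, a ubiquitin-conjugating enzyme gene on the opposite strand whose end lies inside Tnnc2. A further peak of 940 bp with a signal value of 10.7 lay upstream, its edge over the outermost TSS in the replicated list. The 120 bp between them (113 bp in pool E, 143 bp in pool F) fall inside the Tnnc2 sequence printed above. The E-box at -183 to -178 lay in that gap in the replicated list and pool F and under a peak in pool E, and the E-box at -88 to -83 lay under a peak in the replicated list and pool F and in the gap in pool E. The domain of 4 peaks was 7938 bp wide (7946 bp in pool E, 7821 bp in pool F), and 95.7% of the gene body was covered.

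The slow genes had weak peaks of their own. Tnnt1, slow troponin T (chr7:4504570-4516382, minus strand, 12 TSSs), had 4 peaks within 1000 bp of a TSS in the replicated list, with signal values from 2.56 to 3.46. Its strongest value was 3.46 in the replicated list, 3.61 in pool E and 2.95 in pool F, the 0.836, 0.425 and 0.174 percentile of marked genes, at the bottom of each list. The principal TSS, at the TATAA-bearing promoter printed above, was under no peak in any list. The nearest lay 120 bp downstream in the replicated list, 212 bp in pool F and 1501 bp in pool E. That nearest replicated peak had a signal value of 2.70, the 4.11 percentile of all peaks in the list, and a −log10 q-value of 1.84. The strongest replicated peak, chr7:4509699-4510053, lay over TSSs of internal retained-intron transcripts and the nearest pool E and pool F peaks lay 3539 bp and 3534 bp from the more upstream of these TSSs. Its widest domain was 2379 bp in the replicated list, 998 bp in pool E and, in pool F, 2292 bp.

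Tnni1, slow troponin I (chr1:135779434-135810989, plus strand, 8 TSSs), had a peak at its outermost TSS and another among its principal TSSs. The outermost peak had a signal value of 3.17 in the replicated list, 3.65 in pool E and 3.46 in pool F. The peak among the principal TSSs, chr1:135799518-135800941, had 3.84 in the replicated list and 5.57 in pool E, and in pool F it was split into peaks of 3.31 and 3.46. It began 116 bp after the most upstream principal TSS. The gene's strongest peak was neither of these. It was an intronic peak at chr1:135793656-135794660, 4742 bp from the nearest Tnni1 TSS, with a signal value of 8.0 in the replicated list, 10.1 in pool E and 6.69 in pool F. With a −log10 q-value of 26.6 it stood above the peaks at the TSSs, with 3.0 and 4.97.

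Tnnc1, the troponin C of slow and cardiac muscle (chr14:31208312-31211729, plus strand, 3 TSSs), counted as marked with a signal value of 46.8 in the replicated list, 43.1 in pool E and 45.3 in pool F. That value came from a peak over TSSs of Nisch, the nischarin gene on the opposite strand. The peak, chr14:31204794-31207747, ended 565 bp before the Tnnc1 TSS and was nearest to Nisch. The peak nearest to Tnnc1 itself, chr14:31208472-31209103, was 632 bp wide with a signal value of 4.41 in the replicated list, 3.26 in pool E and 5.0 in pool F. It began 160 bp after the principal TSS (58 bp in pool E, 249 bp in pool F). The TSS and the whole Tnnc1 promoter sequence printed above lay between these peaks, under neither, in every list. Given only the peak nearest to it, Tnnc1 thus stood with Tnnt1 and Tnni1 at values of 4.41, 3.46 and 3.84 in the replicated list, while Tnnt3, Tnni2 and Tnnc2 had 47.4, 42.7 and 29.8.

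Of the cardiac genes, Tnnt2, cardiac troponin T (chr1:135836354-135852260, plus strand, 10 TSSs), had no peak within 1000 bp of any TSS and 0% of its body covered in all 4 lists. The nearest peak lay 17073 bp from its first TSS, over the promoter of Lad1. Tnni3, cardiac troponin I (chr7:4518305-4524229, minus strand, 8 TSSs), had 1 peak of 700 bp inside the gene, at chr7:4520903-4521602. Its signal value was 6.12 in the replicated list, 7.07 in pool E and 5.51 in pool F, the 4.10, 3.94 and 3.28 percentile of marked genes. The summit lay in an exon, and the peak began 926 bp after the principal TSS (874 bp in pool E, 943 bp in pool F). It lay 336 bp from the TSS of an internal retained-intron transcript and over no TSS in any list. Of 10 heart muscle markers 4 were marked, with signal values from 6.97 to 38.5, and Mybpc3, Myh6, Myl7, Nkx2-5, Nppa and Nppb had no peak. Of the 6 low CpG heart markers 1 was marked, of the 3 intermediate ones 2, and the 1 high CpG gene was marked, beside 25.2%, 93.9% and 99.3% of all protein-coding genes of those classes. Their part in the Tnni3 peak was not tested. In whole muscle, a mark in fewer cells and less of it per cell cannot be told apart, for the slow and cardiac genes as for the others.

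The order of the genes by signal value differed between the pools. In pool E the signal values ran from Tnnt3 and Tnni2 at 55.6 and 55.1, over Tnnc1 through the Nisch peak at 43.1, to Tnnc2 at 32.3. In pool F they ran from Tnnc1 at 45.3, over Tnni2 at 38.8 and Tnnt3 at 34.1, to Tnnc2 at 22.1. Tnni3, Tnni1 and Tnnt1 followed in that order in each pool, with 7.07, 5.57 and 3.61 in pool E and 5.51, 3.46 and 2.95 in pool F. By its own peak instead of the Nisch peak, Tnnc1 came after Tnnt1 in pool E, at 3.26, and between Tnni3 and Tnni1 in pool F, at 5.0. Of the 11 pool E peaks within 1000 bp of a troponin TSS, all 11 overlapped a pool F peak, and of the 15 in pool F, 13 overlapped a pool E peak. Of all peaks within 1000 bp of a coding TSS, 95.6% of those in pool E and 98.3% of those in pool F overlapped a peak of the other pool. The 2 that did not were Tnnt1 peaks with signal values of 2.50 and 2.95. With an overlap of at least 50% of both peaks, 9 of the 11 and 9 of the 15 met the rule, beside 91.5% and 92.3% of all such peaks. These lay at Tnni1, Tnnc1, Tnnc2, Tnni3, Tnni2 or Tnnt3.

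**Figure D2:**
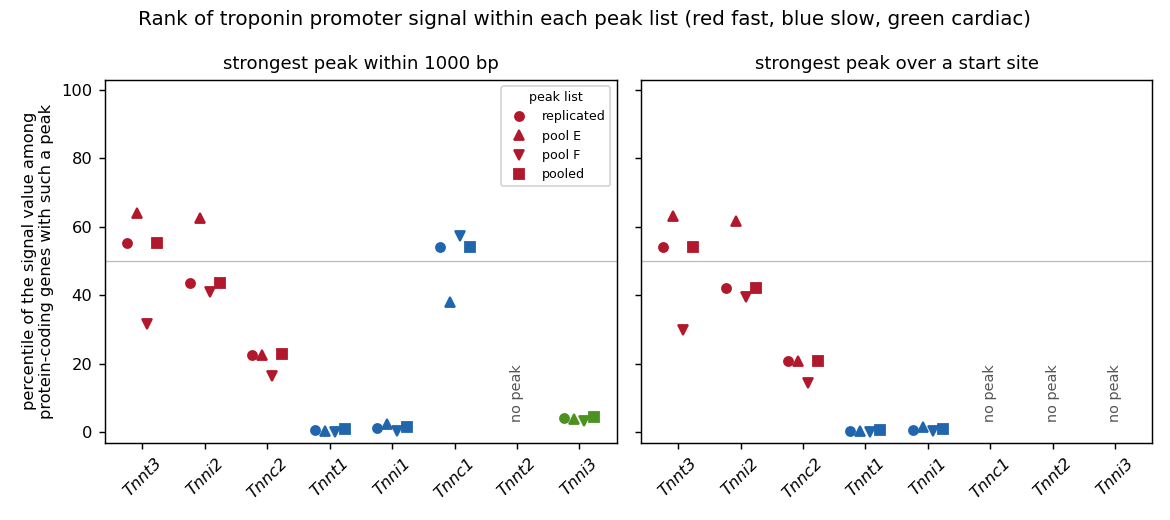
Percentile of the signal value of each troponin gene among protein-coding genes with such a peak, within each of the 4 peak lists (symbols), for the strongest peak within 1000 bp of a TSS (left) and over a TSS (right). Tnnt3 and Tnni2 lie between 31.7 and 64.0 on the left, Tnnt1 and Tnni1 lie near 0 on both sides, and Tnnc1 has a value only on the left, where the Nisch peak counts.

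The pair of fast genes lay in a stretch covered by H3K4me3 far beyond their own promoters, in part by peaks over TSSs of Lsp1. From 1000 bp before Tnni2 to 1000 bp after Tnnt3, 76202 bp, 13 replicated peaks covered 56.9% of the bases (55.9% in pool E, 53.8% in pool F). Windows of the same size were laid end to end from the first base of each chromosome, whatever genes they held. The pair spans, in contrast, were set by genes. Of the 34555 windows, 1 was covered at least as much, at 59.2%. That window, chr15:102948903-103025104, held genes of the Hoxc cluster of developmental transcription factors and was looked up after its value was seen. The 54425 bp between Tnni2 and Tnnt3 were covered to 51.5%. The longest stretch without a peak, 11880 bp, followed the Tnni2 peak. Coverage was higher through Lsp1, with 67.2% of its body under peaks and a signal value of 30.0, and Prr33, with 98.7% of its body covered. Replicated peaks of 9806, 8953, 2528 and 603 bp lay over TSSs of Lsp1.

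The wide peaks in the span of the fast pair were poor in CpG. Of the 4 widest, those of 9806 and 8953 bp lay over TSSs of Lsp1, the latter 15523 bp from the nearest Tnnt3 TSS. The 4 peaks, of 11065, 9806, 8953 and 5663 bp, had ratios of observed to expected CpG of 0.12, 0.14, 0.16 and 0.19. Only 1.76% to 5.08% of the 17343 peaks near coding TSSs had lower ratios. The median of those peaks was 0.55, and that of the 1030 among them of 5000 bp or wider was 0.43. The main Tnnc2 peak had a ratio of 0.32, and 17.6% of peaks near coding TSSs were lower.

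The other pairs were covered far less. Tnni1 with Tnnt2, 74827 bp, held 4 replicated peaks over 5.31% of its bases (6.45% in pool E, 4.51% in pool F), and 14.2% of same-size windows were covered at least as much. A stretch of 33979 bp without a peak ran through Tnnt2 to the end of the span. Its strongest peak, with a signal value of 29.2, lay over Lad1, which encodes an epithelial anchoring-filament protein. Of 6 epithelial markers 5 were marked, with signal values from 6.78 to 23.7, and Krt5 had no peak, beside 69.3% of all protein-coding genes marked. By CpG class 1 of 2 low, 2 of 2 intermediate and 2 of 2 high CpG epithelial markers were marked. Their part in the Lad1 peak was not tested. Tnni3 with Tnnt1, 21660 bp, held 5 replicated peaks over 10.5% of its bases (8.03% in pool E, 9.64% in pool F), and 7.43% of same-size windows were covered at least as much. The 1922 bp between the genes held no peak in any list. Peaks stronger than the highest value of 6.12 within this pair lay outside it, at Ppp1r12c with 57.3, Dnaaf3 with 20.9 and the antisense gene Gm15873 with 11.8. Only that at Ppp1r12c was above 45.2, the median over marked protein-coding genes.

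**Figure D3:**
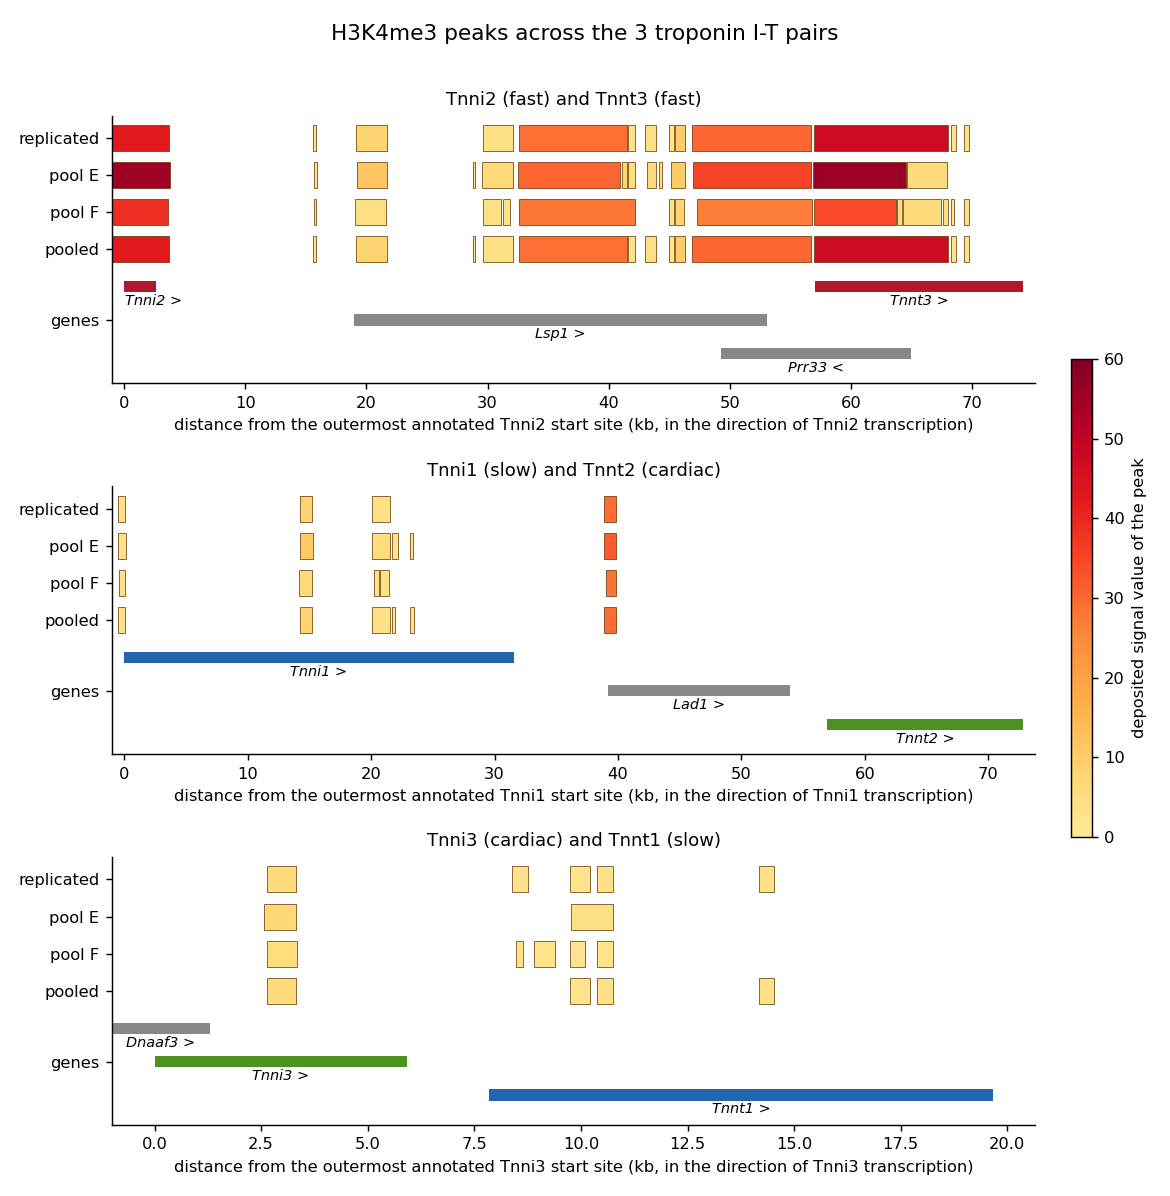
Peaks of the 4 lists as bars coloured by signal value, and genes below them (arrowheads give direction), along the distance in kb from the outermost TSS of the troponin I gene, for each troponin I and T pair. In the replicated list the fast pair (top) is covered to 56.9%. Slow Tnni1 with cardiac Tnnt2 (middle) is covered to 5.31%, and cardiac Tnni3 with slow Tnnt1 (bottom) to 10.5%.

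Genes that work with troponin were counted in 4 lists, without a test, and the counts stand beside 69.3% of all protein-coding genes marked and 25.2% of the low CpG ones. Of 12 thin filament genes all 12 were marked, at a median signal value of 42.9 with domains of 7187 bp at the median, among them 6 of 6 low CpG genes, and the highest were Cfl2 at 61.7, Tmod1 at 55.8, Tpm1 at 53.0 and Tpm3 at 50.6. These 4 were the 4 high CpG genes of the list, a class in which 99.3% of all protein-coding genes were marked. Cfl2 encodes muscle cofilin, Tmod1 a filament cap, and Tpm1 and Tpm3 the tropomyosins that troponin T binds. Of 10 fast partners all 10 were marked, at a median signal value of 38.8 with domains of 10846 bp at the median, among them 8 of 8 low CpG genes. The highest were Mylpf (fast regulatory light chain) at 58.8, Actn3 (fast alpha-actinin) at 57.7, Atp2a1 (fast calcium pump) at 46.6 and Pvalb (parvalbumin) at 46.4. Of 10 slow partners all 10 were marked, with a lower median of 10.1 and a median domain of 3213 bp, among them 7 of 7 low CpG genes. The fast and slow lists overlapped, with signal values from 9.83 to 58.8 in the fast and from 3.06 to 51.0 in the slow list. The highest slow partners were Atp2a2 (slow and cardiac calcium pump) at 51.0, Myl3 (slow essential light chain) at 36.9 but 3.65 over its own TSSs, Smpx at 16.1 and Myh7b at 10.3. Atp2a2 was the 1 high CpG gene of the slow list, as Mylpf was of the fast list. Of 10 cardiac partners 3 were marked, Myl4 at 55.6, Ryr2 at 13.0 and Pln at 3.22, and Pln was the 1 of 7 low CpG genes among them. The 7 without a peak included Mybpc3, Myh6, Myl7 and Nkx2-5, and all but Sln were already counted among the heart muscle markers. Over all marked protein-coding genes the median signal value was 45.2 and the median domain 2400 bp, and over the low CpG ones 18.5 and 1731 bp. Markers of the tissue itself were present, with 10 of 10 skeletal fibre genes marked, 7 of 7 low CpG ones included. Of these, Acta1, Myh4, Mylpf, Actn3, Atp2a1 and Pvalb were already counted as partners, so the lists are not independent. Of satellite cell and myoblast markers 6 of 6 were marked (3 of 3 low CpG), and of smooth muscle markers 5 of 5 (4 of 4 low CpG).

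The fast troponin genes ranked higher by domain width than by signal value among all marked genes. Tnnt3, Tnnc2 and Tnni2 were at the 99.9, 96.1 and 90.8 percentile of domain width among all marked genes, and at the 55.2, 22.7 and 43.5 percentile of signal value. Among marked low CpG genes the ranks by width and signal value lay closer for each of these genes, and closest for Tnni2. Of the low CpG genes 0.142%, 4.94% and 10.4% had a domain at least as wide as those of Tnnt3, Tnnc2 and Tnni2. These shares count the gene itself, so that the 0.142% is 3 genes with Tnnt3 included. The signal values of Tnnt3, Tnnc2 and Tnni2 were at the 90.5, 67.4 and 85.8 percentile of the low CpG genes. The low CpG percentile of the Tnnc2 signal value was 67.0 in pool E and 57.7 in pool F. Tnnt1, Tnni1 and Tnni3 were at the 49.3, 15.6 and 3.79 percentile of width, with 2379, 1424 and 700 bp. The first of these ranks depended on the list: Tnnt1 was at the 7.24 percentile with 998 bp in pool E, at 7.68 with 1002 bp in the pooled list and at 49.2 with 2292 bp in pool F. Tnni1 was at the 35.5 percentile with 2054 bp in pool E and at 10.8 with 1168 bp in pool F, and Tnni3 was at 4.03 with 742 bp and at 4.09 with 688 bp. Tnnc1 was at the 83.2 percentile with 4310 bp through a domain joined to the Nisch peak.

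**Figure D4:**
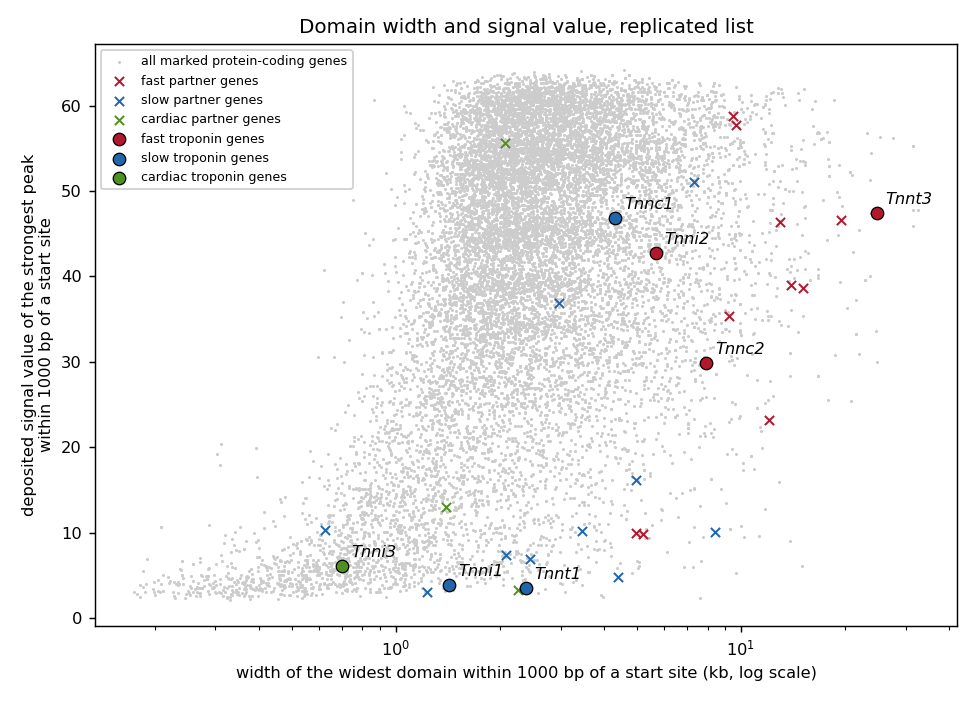
Deposited signal value of the strongest peak within 1000 bp of a TSS against domain width in kb (log scale) in the replicated list, for all 15067 marked protein-coding genes (grey), marked fast, slow and cardiac partner genes (crosses) and the 7 marked troponin genes (outlined circles). Tnnt3 lies at the right edge of the cloud (24733 bp), and Tnnt1, Tnni1 and Tnni3 lie at its bottom with signal values under 7.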

How the data were processed

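H3K4me3 ChIP-seq of gastrocnemius was measured in 4 libraries from 2 pools. Per the text file deposited with every sample, the authors called peaks on mm10 from filtered alignments, as pseudoreplicated lists for pool E, pool F and both pools and as a replicated list, with 42418, 39544, 45270 and 41955 peaks. Aligner, peak caller and settings are not given in the sources used here. Each peak carries a deposited signal value, a −log10 q-value and a display score, which are the authors' own, and the reference of the signal is not stated. An input, the same for all lists, is named without description. Without read counts in the lists, depth is unknown and no interval is given. The lowest −log10 q-value in the replicated list is 0.364.

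Computed here with Python 3.11.15, numpy 2.4.6 and pysam 0.24.0: GENCODE M21 gave the TSSs, and RefSeq GRCm38.p6, the build of mm10, gave the sequences. A peak within 1000 bp of a TSS marked a gene, peaks up to 1000 bp apart were joined, and percentiles count marked protein-coding genes with lower values in the same list. The high CpG class needed a ratio of at least 0.75 with a GC content of at least 55% in a window of 1000 bp, and the low class ratios under 0.48 in all windows. Pair spans were extended by 1000 bp. The scripts were tested on simulated peaks. Named genes were the 8 troponin genes, neighbours with a TSS within 10000 bp, and up to 4 genes of each partner list by signal value. The members and lists were chosen with earlier results of these data known. Alternatives covered the TSS window, the TSSs used, the list, the q-value, the gap and the overlap, and assigning each peak to its nearest TSS was added after seeing the data. The markers of 1 other cell type are not reported here.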

Additional observations from a re-analysis of the deposited data

How the results depend on the processing

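The 3 fast genes stayed marked under every alternative run: TSS windows of 0 and 2500 bp, coding or outermost TSSs only, each list, and −log10 q-values of at least 2 or 10. Counting a −log10 q-value of at least 10 left 5 of the 8 troponin genes marked. Of the slow genes 1 stayed, Tnnc1, through the Nisch peak. The cardiac count stayed at 1 at that cutoff, through the Tnni3 peak with a −log10 q-value of 13.0. The cardiac count fell to 0 with a window of 0 bp and to 0 with outermost TSSs only. With a window of 0 bp 67.0% of all protein-coding genes were marked, beside 69.3% within 1000 bp. No such share is given for the q-value cutoff or the outermost TSSs, so whether other genes fell alike is not shown. Each pool's list alone gave 7 marked troponin genes (7 to 7), 3 fast (3 to 3), 3 slow (3 to 3) and 1 cardiac (1 to 1). Peaks covered 28.7% of the 3 pair spans combined, and 26.5% with flanks of 10000 bp, 23.5% at a −log10 q-value of at least 10, and 26.9% to 28.5% in the lists of single pools. The 11 pool E peaks that overlapped a pool F peak became 7 with a window of 0 bp and 16 with 2500 bp. Since all 11 overlapped, the fall to 7 came from counting fewer peaks, not from lost overlap. Of 35 domain widths recomputed, 26 stayed within 1.5 times the width reported and 9 did not. The 9 were Tnnt3 (11065, 40106 and, in pool E, 39150 bp), Tnnc2 (4807 and 13654 bp), Tnnt1 (460 bp, 1002 bp pooled and 998 bp in pool E) and Tnni1 (3040 bp); those with no list named come from leaving peaks unjoined, or from joining gaps of up to 3000 bp for the wider ones. No paired analysis was possible because the technical libraries that share a number were merged into 1 list per pool, and no result comes from a test. Depth is unknown, so a peak that is missing in a list, as at Tnnt2, was not detected rather than shown to be absent.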
